A study of Mus musculus with 20 samples.

Results

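Nuclear-encoded subunits of oxidative phosphorylation were followed across all 10 conditions of the study. They were taken as every protein-coding gene of the deposited table whose symbol begins with Ndufa, Ndufb, Ndufc, Ndufs or Ndufv and a number, with Cox4 to Cox8, with Atp5 or with Uqcr, or is Sdha, Sdhb, Sdhc or Sdhd. The rule found 84 of the 54986 genes in the table. They comprised 35 genes of complex I, 4 of complex II, 8 of complex III, 20 of complex IV and 17 listed under ATP synthase. The test required at least 1 CPM (read counts scaled to 1000000 reads, the deposited unit) in at least 2 libraries, and 78 of the 84 genes passed. All 6 that did not were complex IV genes: Cox4i2, Cox6b2, Cox7b2, Cox8b, Cox8c and Ndufa4l2, mostly isoforms restricted to single tissues.

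Oxidative phosphorylation is carried out in the inner mitochondrial membrane. Complex I (NADH dehydrogenase) and complex II (succinate dehydrogenase) feed electrons to ubiquinone, complex III (the cytochrome bc1 complex) passes them to cytochrome c, and complex IV (cytochrome c oxidase) gives them to oxygen. The proton gradient built by complexes I, III and IV drives the ATP synthase. Most subunits are made from nuclear genes in the cytosol and imported, while a small core of complexes I, III and IV and of the ATP synthase is encoded by mitochondrial DNA, so that both genomes have to supply the same enzymes.

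NMuMG is an epithelial line from normal mouse mammary gland. All 10 conditions were grown as 2-dimensional cultures of NMuMG or cells derived from it. The conditions were untreated NMuMG, NMuMG treated with TGFβ, NMuMG silenced for hnRNP E1 (gene Pcbp1) with an shRNA (E1KD), and lines recovered from the primary tumor (M1P) and the lung metastases (L1P) that E1KD cells formed in NOD/SCID mice. The others were NMuMG with an empty vector, NMuMG clones 12 and 16 overexpressing the long noncoding RNA Platr18, and E1KD cells that also carried either a scrambled control (E1KD SCR) or an shRNA to Platr18 (E1KD Platr18 KD). E1KD, M1P, L1P, E1KD SCR and E1KD Platr18 KD thus all carried the hnRNP E1 shRNA, each overexpressing clone was a single line, and each condition had 2 libraries. The labels did not say whether these were separate cultures, so p-values measure only the spread between these libraries, which may be technical.

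The libraries were of 2 kinds. The mitochondrial ribosomal RNA mt-Rnr2 was at 333 to 492 CPM in the 10 libraries of NMuMG, TGFβ, E1KD, M1P and L1P, and at 113874 to 165149 CPM in the other 10. Comparisons were therefore made only within a kind. From the steps between low values, the libraries were scaled to between 50.8 and 147 M reads (1 M is 1000000), so that 3 reads on a gene were worth 0.0204 to 0.0590 CPM. Pcbp1 was at 287 and 312 CPM in NMuMG against 16.6 and 14.21 in E1KD, and at 32.3 in both empty vector libraries against 3.28 and 3.46 in E1KD SCR. Platr18, listed as Lncenc1, was at 3.69 and 3.06 CPM with the empty vector, 3092 and 3096 in clone 12, and 813 and 820 in clone 16. It was at 2.92 and 3.10 CPM in E1KD SCR and 0.136 and 0.170 in E1KD Platr18 KD. The epithelial keratin and adhesion markers were present in all conditions, at summed levels of 1333 to 4004 CPM over 7 genes, of which 3 to 5 reached 1 CPM. The 4 endothelial markers summed to at most 0.629 CPM, and the 3 lung epithelium markers to at most 0.04 CPM.

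One library stood apart for the subunit genes. E1KD replicate 1 was above replicate 2 in 77 of the 78 tested subunit genes, by a median of 0.96 on the log2(CPM + 1) scale and by up to 2.23, whereas the median over all 17106 tested genes was 0.29. In the other 9 conditions the median difference between the 2 libraries was between -0.21 and -0.0011. The subunit genes made up 0.599% of the table's sum in E1KD replicate 1 and 0.418% in replicate 2, against 0.419% and 0.423% in NMuMG. The difference between these E1KD libraries had a correlation with the difference between empty vector and NMuMG, that is between the kinds of library, of r = 0.57 (Spearman's rho = 0.63) over the 78 genes. It was also larger in genes with short exons (r = -0.44 with the log2 mean exon length over 77 genes). These are descriptions over genes that share the same libraries. Results that rest on E1KD replicate 1 are given with and without it. Because all libraries share one estimate of the spread, it also widened the error of the subunit genes in comparisons that do not use it.

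**Figure D1:**
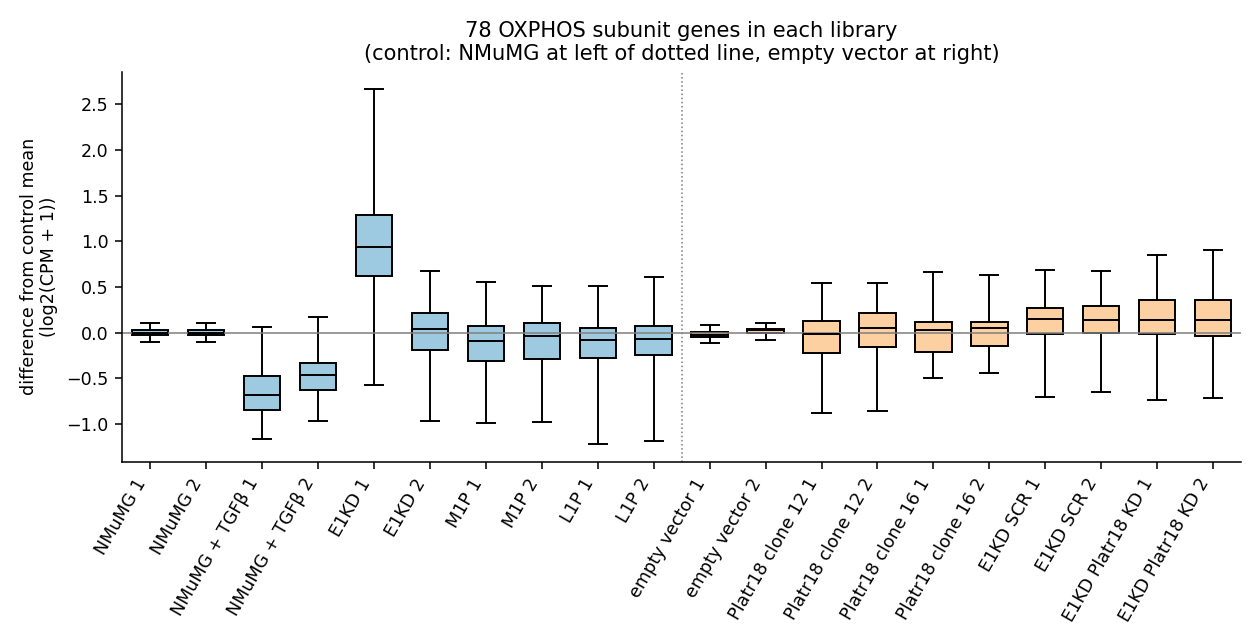
Difference of the 78 tested subunit genes in each of the 20 libraries from the control mean of its kind, on the log2(CPM + 1) scale. Each box spans the quartiles with the median as a line, and whiskers reach the lowest and highest gene. The medians of both TGFβ libraries lie below 0 and E1KD replicate 1 lies far above replicate 2, with a median difference between the 2 of 0.96.

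The subunit genes of the 5 enzymes are spread over the genome and are known to share promoter motifs bound by NRF1, by ETS factors such as GABP, by YY1 and by the ERR receptors. RefSeq promoter windows (GRCm38.p6, from 250 bases before to 50 bases after each RefSeq start) were matched for 66 of the 78 tested subunit genes. A match to the NRF1 motif TGCGCANGC on either strand was present in 12 of the 66 genes (18.2%), against 4.70% of all 27025 genes with a window. The ETS and GABP motif CCGGAAG was present in 16 genes (24.2%, all genes 9.93%), the YY1 motif AAGATGGCG in 8 (12.1%, all genes 1.64%), and the ERR motif AAGGTCA in 8 (12.1%, all genes 5.38%). At least 1 of the 4 was found in 34 of the 66 genes (51.5%) and in 19.6% of all genes. A match is only a description of the letters in the window. The windows below belong to the subunit gene of each enzyme that fell most with TGFβ, and they are shown because the median difference with TGFβ was negative in all 5 enzymes. Letters in capitals match 1 of the 4 motifs on either strand. The Atp5g2 window belongs to a RefSeq start that lies 1305 bases from the start of the gene in the deposited table, and the other 4 starts lie within 37 bases of it.
Ndufa6, chr15:82354242-82354541, minus strand: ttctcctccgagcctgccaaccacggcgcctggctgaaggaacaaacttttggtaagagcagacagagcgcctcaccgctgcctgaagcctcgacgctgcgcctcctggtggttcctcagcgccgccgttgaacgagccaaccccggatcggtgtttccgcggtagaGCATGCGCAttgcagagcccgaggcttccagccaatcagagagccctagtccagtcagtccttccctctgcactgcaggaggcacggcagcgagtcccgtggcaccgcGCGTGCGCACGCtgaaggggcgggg
Sdhd, chr9:50603800-50604099, minus strand: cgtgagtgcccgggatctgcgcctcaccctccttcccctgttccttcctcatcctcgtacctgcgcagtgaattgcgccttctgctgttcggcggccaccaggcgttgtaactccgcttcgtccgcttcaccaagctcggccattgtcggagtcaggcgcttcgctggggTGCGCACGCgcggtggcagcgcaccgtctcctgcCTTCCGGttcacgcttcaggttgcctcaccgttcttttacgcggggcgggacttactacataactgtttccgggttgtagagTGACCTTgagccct
Uqcr10, chr11:4704295-4704594, minus strand: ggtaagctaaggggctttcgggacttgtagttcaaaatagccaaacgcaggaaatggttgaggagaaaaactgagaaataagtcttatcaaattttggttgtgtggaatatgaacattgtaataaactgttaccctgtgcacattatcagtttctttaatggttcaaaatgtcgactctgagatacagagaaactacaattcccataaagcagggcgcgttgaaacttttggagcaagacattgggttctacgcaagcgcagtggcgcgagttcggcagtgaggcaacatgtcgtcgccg
Cox8a, chr19:7217567-7217866, minus strand: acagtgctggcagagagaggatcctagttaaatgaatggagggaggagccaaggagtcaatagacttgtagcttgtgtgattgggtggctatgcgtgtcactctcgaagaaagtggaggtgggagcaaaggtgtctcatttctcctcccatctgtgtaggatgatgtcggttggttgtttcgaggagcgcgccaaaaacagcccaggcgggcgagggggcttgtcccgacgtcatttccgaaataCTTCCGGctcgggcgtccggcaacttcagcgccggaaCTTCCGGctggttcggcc
Atp5g2, chr15:102670998-102671297, minus strand: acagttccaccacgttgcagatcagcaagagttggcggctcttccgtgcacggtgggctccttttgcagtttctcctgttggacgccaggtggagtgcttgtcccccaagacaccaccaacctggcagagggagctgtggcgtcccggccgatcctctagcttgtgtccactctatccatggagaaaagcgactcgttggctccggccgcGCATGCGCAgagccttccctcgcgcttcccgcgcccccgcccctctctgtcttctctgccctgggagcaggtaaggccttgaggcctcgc
Ndufa6 held 3 NRF1 matches, of which a pair overlaps just after the start site, and Atp5g2 held 1. Sdhd held a match each to the NRF1, ETS and ERR motifs, Cox8a held 2 ETS matches, and the Uqcr10 window held none. In the TGFβ comparison described next, 10 of the 12 genes with an NRF1 match were called lower (median -0.72) and 31 of the 54 without one (-0.58). For the ETS motif these were 10 of 16 (-0.65) and 31 of 50 (-0.55), for YY1 5 of 8 (-0.54) and 36 of 58 (-0.61), and for ERR 5 of 8 (-0.57) and 36 of 58 (-0.60). None of these splits was tested.

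With TGFβ, which drives epithelial-mesenchymal transition in these cells, most subunit genes fell, though how far their share exceeded that of all genes depended on the libraries in the fit. Of the 78 tested, 48 (61.5%) were called lower and 0 higher at a limma p under 0.05 after Benjamini-Hochberg adjustment, against 33.6% of all tested genes called lower and 21.8% called higher. At an unadjusted p under 0.05 the numbers were 53 lower and 0 higher. The median difference in log2(CPM + 1) between TGFβ-treated and untreated NMuMG was -0.60 over the subunit genes and -0.08 over all tested genes, and 76 of the 78 differences were negative. Without E1KD replicate 1 in the fit, 70 were called lower and 0 higher (all genes, 43.0% lower and 25.9% higher). With the compared groups alone in the fit 59 were called lower (75.6%, all genes 36.7%). With only the 10 libraries of the same kind, where E1KD replicate 1 has more weight in the spread, 15 were, and this share of 19.2% was below the 26.4% of all genes. The falls were moderate in size: only Cox8a was past an unadjusted p of 0.001 and a difference of at least 1, a limit that 7.66% of all tested genes passed downward. The count dropped to 24 without NMuMG replicate 1 (30.8%, all genes 28.4%) and to 20 without TGFβ replicate 1 (25.6%, all genes 26.3%), shares near those of all genes. It was 32 without NMuMG replicate 2 (41%, all genes 28.1%) and 43 without TGFβ replicate 2 (55.1%, all genes 31.4%). Replicate 1 of the treated cells was below replicate 2 by a median of 0.21, and with median-of-ratios rescaling the median over subunit genes was -0.45 (all genes, 0.00), with 50 called lower and 1 higher. That rescaling turned the split over all genes from 3731 higher and 5744 lower to 5480 and 5241. In bulk samples, fewer cells of a type and less RNA per cell cannot be told apart.

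The median difference was negative in each enzyme. Over all tested genes it was -0.08, with 33.6% called lower, or 43.0% without E1KD replicate 1 in the fit. The share of complex IV genes called lower with all libraries was near that of all genes. Complex I had 24 of 35 genes called lower with a median difference of -0.60, complex II 3 of 4 (-0.64), complex III 5 of 8 (-0.65), complex IV 5 of 14 (-0.55) and the ATP synthase genes 11 of 17 (-0.60). When E1KD replicate 1 was left out of the fit, these numbers were 34, 4, 8, 10 and 14.

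Cox8a, which encodes the ubiquitous form of a small complex IV subunit, had 296 and 305 CPM in NMuMG and 133 and 153 CPM with TGFβ. It fell by 1.07 on the log2 scale (SE 0.127, adjusted p = 4.7e-06 from limma). Both treated libraries were below both untreated ones, as for the other genes named in the next sentences, which was part of the rule that chose them. In complex I, Ndufa6, an accessory subunit, had 19.8 and 20.7 CPM before and 9.10 and 10.4 CPM after treatment (difference -0.99, SE 0.164, adjusted p = 1.3e-04 from limma). Ndufb11, an X-linked accessory subunit, had 38.6 and 41.4 against 18.3 and 21.96 CPM (-0.96, SE 0.142, adjusted p = 4.5e-05 from limma). Its locus overlaps Rbm10 on the opposite strand, and strand use in the counting was not given in the sources used here. A near-identical copy held 56.0% of the reads of Ndufb11 and its copy in NMuMG. Ndufa9 had 8.83 and 9.60 against 4.24 and 4.78 CPM, a difference of -0.89 (SE 0.201), and Ndufb10 had 20.6 and 19.6 against 9.83 and 11.5 CPM, a difference of -0.86 (SE 0.217).

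In complex II, Sdhd, one of the membrane anchors of succinate dehydrogenase, had 91.9 and 87.7 CPM in NMuMG and 47.4 and 49.0 CPM with TGFβ (difference -0.88, SE 0.0687, adjusted p = 5.3e-08 from limma). Uqcr10, a small subunit of complex III, had 45.9 and 45.1 against 22.9 and 24.7 CPM (-0.91, SE 0.140, adjusted p = 6.3e-05 from limma). Atp5g2, one of the genes that encode the rotating c subunit of the ATP synthase, had 17.4 and 18.2 against 8.11 and 10.2 CPM (-0.89, SE 0.200, adjusted p = 0.00156 from limma). Near-identical copies held 88.7% of the reads of Atp5g2 and its copies in NMuMG. All 8 of these genes were also called lower without E1KD replicate 1. The plot of these genes by library shows their levels, and the untreated and treated pairs are apart in each case because the genes were chosen for it.

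**Figure D2:**
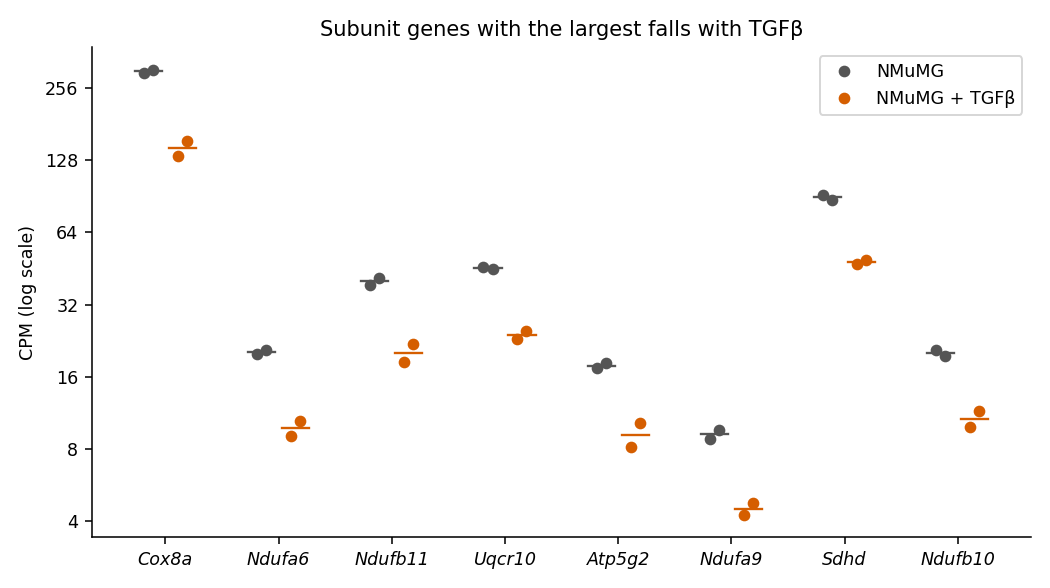
CPM on a log axis of the 8 subunit genes with the largest called falls with TGFβ, in the 2 NMuMG libraries and the 2 TGFβ-treated libraries. Points are libraries and short lines are means. The genes were chosen without overlap between the groups, so that both treated points lie below both untreated points, as in Cox8a with 133 and 153 against 296 and 305.

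Within NMuMG, the highest level per kilobase of transcript among the subunit genes was that of Cox8a, at 547 CPM per kilobase. Atp5b, the catalytic β subunit of the ATP synthase, followed at 202 CPM per kilobase. Reads on near-identical copies of a gene are left out of this order. With TGFβ the levels of Cox8a and Atp5b were 260 and 120 CPM per kilobase, still the highest. In the other kind of library Atp5b was the highest in each condition, at 515 CPM per kilobase with the empty vector, against 320 for Cox8a. Atp5b had 385 and 389 CPM in NMuMG against 211 and 249 CPM with TGFβ. Ndufv1, which carries the NADH site of complex I, had 40.5 and 42.8 against 23.8 and 28.5 CPM. Uqcrfs1, the Rieske iron-sulfur protein of complex III, had 106 and 110 against 64.03 and 66.3 CPM. These are, with Sdhd and Cox8a, the genes with the highest mean CPM in each enzyme.

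The other 30 subunit genes did not pass the test with all libraries in the fit. Cox7a2l, which encodes a factor that joins complexes III and IV into supercomplexes, had 124 and 121 CPM in NMuMG and 121 and 123 CPM with TGFβ, a difference of -0.0037 (SE 0.0595). Atp5l was the only gene with a positive difference, of 0.12 (SE 0.211), and adding the reads of its near-identical copies turned it to -0.25. Without E1KD replicate 1 in the fit, 8 of the 78 remained uncalled, among them both of these genes.

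The subunits encoded by mitochondrial DNA differed in the other direction. Of 13 tested, 11 were called higher with TGFβ and 0 lower, with a median difference of 0.68, against 21.8% and 33.6% of all tested genes. The mitochondrial complex I gene mt-Nd5 had 971 and 977 CPM in NMuMG and 1957 and 2302 CPM with TGFβ (difference 1.12, SE 0.0843, adjusted p = 3.6e-08 from limma). For mt-Nd6 the values were 203 and 195 against 417 and 529 CPM (1.24, SE 0.152, adjusted p = 6.9e-06 from limma), and mt-Atp8, which overlaps mt-Atp6, differed by 1.15 (SE 0.350).

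Other nuclear genes of the mitochondrion mostly fell, beside 33.6% of all tested genes called lower and 21.8% called higher. Of 6 subunits and carriers outside the naming rule 4 were called lower, with Cyc1 (cytochrome c1) at -0.85, Atpif1, the inhibitor of the ATP synthase, at -0.84, and Ndufab1 at -0.59. Of 48 assembly factors 25 were called lower and 3 higher (median -0.29), the largest falls being those of Coa3 (-0.98) and Cox14 (-0.98), which act in building complex IV, and of Uqcc2 (-0.81). Of 21 genes of the TCA cycle and pyruvate dehydrogenase 12 were called lower and 0 higher (median -0.51), led by Suclg2 (-1.38), the pyruvate dehydrogenase kinase Pdk1 (-1.26) and Idh2 (-1.06). Of 77 mitochondrial ribosomal proteins 61 were called lower and 0 higher (median -0.53), with Mrps28 at -1.31, Mrps6 at -1.19 and Mrpl12 at -1.16. By the median, the fall was not a feature of mitochondrial proteins alone: 79 cytosolic ribosomal proteins had -0.54, against -0.08 over all tested genes. Of these 79, 29 were called lower and 0 higher, and the share called lower was near that of all genes. Without E1KD replicate 1 in the fit 72 were called lower (all genes, 43.0%). Rps14 (-1.001), Rpl8 (-0.96) and Rps26 (-0.93) led that list.

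Among 16 regulators of mitochondrial biogenesis, 7 were called lower and 3 higher with TGFβ (median -0.24), against 33.6% and 21.8% of all tested genes. The largest falls were those of Gabpb2, a partner of GABP, by 1.46 on the log2 scale, Tfam, the packaging and transcription factor of mitochondrial DNA, by 0.92, and the hypoxia factor Epas1 by 0.89. In the same comparison the summed level of 5 mesenchymal markers moved from 535 to 556 CPM in NMuMG to 1383 to 1596 CPM, and that of 7 epithelial markers from 2460 to 2494 CPM to 1746 to 2070 CPM. The sum of 3 muscle markers, of which 1 reached 1 CPM, moved from at most 0.036 to 16.2 to 17.4 CPM. The part of these cell states in the subunit result was not tested.

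**Figure D3:**
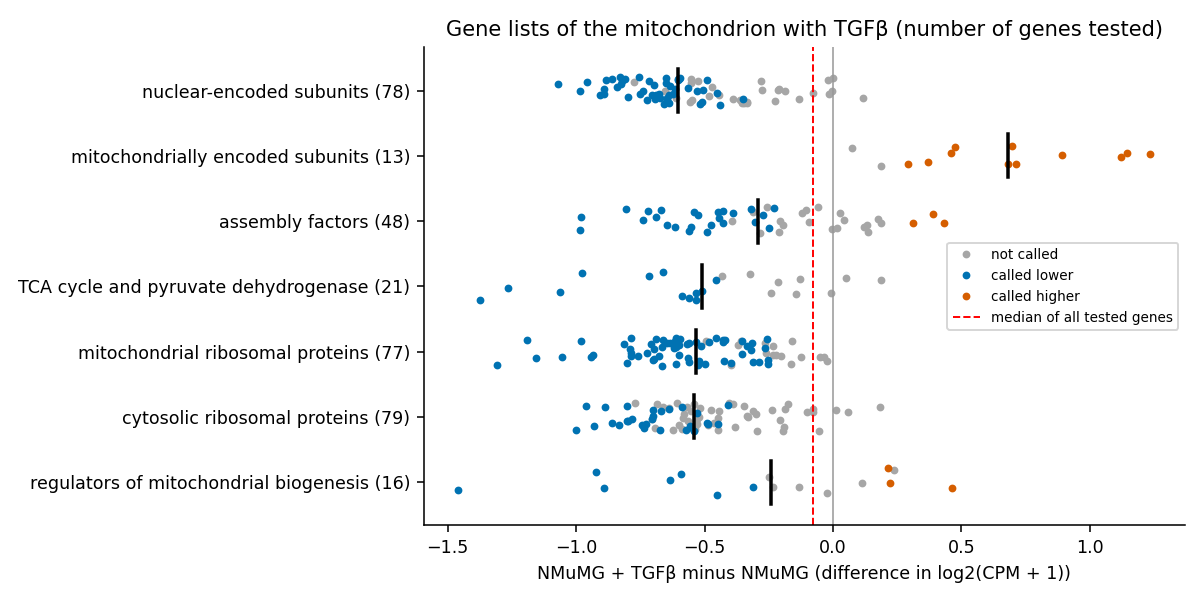
Difference in log2(CPM + 1) between TGFβ-treated and untreated NMuMG for the 78 nuclear-encoded subunit genes and 6 other gene lists. Points are genes, colored by their call, black bars are list medians and the dashed line is the median of all tested genes. The nuclear-encoded subunits center at -0.60 and the mitochondrially encoded ones at 0.68.

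Silencing of hnRNP E1 was profiled in both kinds of library. Between E1KD and NMuMG, 38 of 78 subunit genes were called higher and 4 lower, against 39.6% and 17.1% of all tested genes, with a median difference of 0.53 (all genes, 0.17). This rested on E1KD replicate 1. Without it the median was 0.03 (all genes, 0.00), and 21 were called higher and 18 lower, against 29.9% and 27.7% of all tested genes. That fit has a single E1KD library, which is assumed to vary like the other conditions. Without E1KD replicate 2 instead, 69 were called higher and 3 lower, against 58.9% and 14.5% of all genes. Without either NMuMG library 22 were called higher (28.2%) and 3 lower (3.85%), below the 31.1% to 31.6% and 13.9% to 14.1% of all genes. Median-of-ratios rescaling moved the median over all genes from 0.17 to 0.02 and that over the subunit genes to 0.34. It also moved the split over all genes from 6769 higher and 2918 lower to 5490 and 5005, while 37 subunit genes were called higher and 7 lower. With the compared groups alone in the fit limma called 0 subunit genes, with 7 at an unadjusted p under 0.05, while 7.48% of all genes were called higher and 4.62% lower. With the same kind of library alone it called 10 higher (12.8%) and 3 lower (3.85%), below the 28.5% and 13.9% of all genes.

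The gene with the largest rise was Cox5a, a subunit of complex IV, with 3.20 and 3.79 CPM in NMuMG but 27.4 CPM in E1KD replicate 1 and 5.06 CPM in replicate 2. The difference was 1.55 (SE 0.439, adjusted p = 0.00811 from limma), and 0.43 (SE 0.116, adjusted p = 0.00411 from limma) without replicate 1. A noncoding RNA annotated at a bidirectional promoter overlaps the locus on the opposite strand and reached 12.5 CPM. Atp5g1, another gene of the c subunit, was the largest rise without replicate 1: it had 18.0 and 17.4 CPM in NMuMG and 58.8 and 28.9 CPM in E1KD, a difference of 1.18 with and 0.68 without that library. Both E1KD libraries lay above both NMuMG libraries in these genes, as their choice required. The 2 E1KD libraries were further apart than E1KD replicate 2 was from NMuMG. Near-identical copies held 79.8% of the reads of Atp5g1 and its copies in NMuMG.

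The core proteins of complex III behaved in the same way. Uqcrc1 had 9.66 and 10.1 CPM in NMuMG and 37.7 and 12.3 CPM in E1KD (difference 1.06, without replicate 1 0.29), and an identical second listing of this gene held 49.3% of its reads in NMuMG. Uqcrc2 differed by 0.89 (0.15). Complex III had the highest median of the enzymes without replicate 1, at 0.27, with 6 of its 8 genes called higher, while complex I had a median of -0.05 with 7 of 35 called higher and 9 lower. The other large rises shrank likewise. They were Uqcr11 (1.06, without replicate 1 0.11), Sdhb, the iron-sulfur subunit of complex II (1.00, 0.22), Ndufb9 (0.95, 0.38) and Cox7c (0.87, 0.31). Of these, Sdhb and Uqcr11 were not called without that library.

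The 4 genes called lower in E1KD stood below NMuMG in both libraries. Ndufv3, a small accessory subunit next to the NADH site of complex I, had 30.0 and 29.2 CPM in NMuMG and 19.6 and 14.6 CPM in E1KD (difference -0.77, SE 0.109, adjusted p = 3.5e-05 from limma, and -0.97 without replicate 1). The others were Cox8a, at 286 and 194 CPM in E1KD (-0.35, without replicate 1 -0.63), Cox7a2l at 109 and 97.1 CPM (-0.25, -0.33) and Atp5s at 1.95 and 1.70 CPM (-0.41, -0.47). Atp5s is matched by its name but is not a subunit of the enzyme.

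In the other kind of library, E1KD SCR cells were compared with cells carrying the empty vector. These lines also differ in the vector and in the scrambled shRNA, which cannot be told apart from the silencing here. The median difference over the subunit genes was 0.15 (all genes, 0.02), and 10 were called higher and 5 lower, against 23% and 19.6% of all tested genes. In a fit that left out E1KD replicate 1, which changes no value here but the estimate of the spread, 36 were called higher and 12 lower, against 33.1% and 26.8% of all tested genes. Leaving out any 1 of the 4 libraries compared gave 5 to 9 calls (6.41% to 11.5%), against 33.3% to 34.4% of all genes called. Complex III again had the highest median, at 0.36. Atp5g1 rose from 38.3 and 37.4 CPM to 60.8 and 60.5 CPM (difference 0.67, SE 0.201, adjusted p = 0.0156 from limma). Cox6b1, which caps complex IV on its outer face, rose from 120 and 133 CPM to 204 and 197 CPM (0.66, SE 0.216, adjusted p = 0.0229 from limma). The other rises were of Ndufa6 (0.59), Ndufb7 (0.57), Uqcr10 (0.48), Sdhd (0.42), Ndufb6 (0.39), Atp5d (0.33), Atp5k (0.32) and Uqcrfs1 (0.19). The groups did not overlap in any of these genes, which was part of the rule that chose them, except for Atp5k and Uqcrfs1.

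Ndufv3 was again lower in the silenced cells, at 48.3 and 49.9 CPM with the empty vector and 39.4 and 35.7 CPM in E1KD SCR (difference -0.38, SE 0.109, adjusted p = 0.0114 from limma). Atp5a1, the α subunit of the ATP synthase, fell from 299 and 320 CPM to 190 and 196 CPM (-0.68, SE 0.232, adjusted p = 0.0297 from limma). The deposited table lists it 2 times, on a patch scaffold and on the main assembly, with an identical transcript. The second listing held 49.8% of its reads with the empty vector, so that the levels given are about the share of 1 listing, and with both summed the difference was -0.66. Atp5s fell by 0.64 on the log2 scale, Cox6a2 by 0.47 and Cox7a1 by 0.22. Cox6a2 was under 0.5 CPM in all 4 libraries compared.

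The silencing effects in the 2 kinds of library share no library and could be set side by side, though the cell states differed. Over 5 mesenchymal markers the median difference was 1.53 between E1KD and NMuMG and 0.27 between E1KD SCR and empty vector. Platr18 was called higher in the first of these comparisons and was not called in the second. Over the 78 subunit genes, the difference between E1KD replicate 2 and NMuMG had a correlation with that between E1KD SCR and empty vector of r = 0.73 (rho = 0.71). With both E1KD libraries r was 0.70 (rho = 0.69). The points are genes, which are not replicates, and exon length and base composition are the same on both axes. The difference between the effects, tested as an interaction, was called for 1 gene upward and 1 downward, against 15.4% and 5.86% of all tested genes. Without E1KD replicate 1, 1 was called upward and 15 downward, against 14.3% and 15.3%, and the median moved from 0.34 to -0.11. Over all genes 72.4% of the calls were upward, against 54.4% with median-of-ratios rescaling and 47.1% with equal sums. With median-of-ratios rescaling 5 subunit genes were called upward and 3 downward, against 16.6% and 13.9% of all genes. With equal sums these were 1 and 4, against 14.4% and 16.2%. Leaving out 1 compared library moved the median over the subunit genes to between -0.11 and 0.81. The genes called with both libraries were Cox7a2l (-0.34, SE 0.0841, adjusted p = 0.00969 from limma), whose difference was negative in E1KD and 0.10 in E1KD SCR, and the muscle and heart isoform Cox6a2 (0.51), which was under 0.5 CPM in all libraries compared. Ndufv3 (-0.39, adjusted p = 0.0854 from limma), Cox7a1 (0.22, adjusted p = 0.0722 from limma) and Ndufa8 (0.56, adjusted p = 0.0934 from limma) came next by p and were not called. Of these, Ndufv3 was called without E1KD replicate 1 (-0.59, adjusted p = 4.2e-04 from limma).

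**Figure D4:**
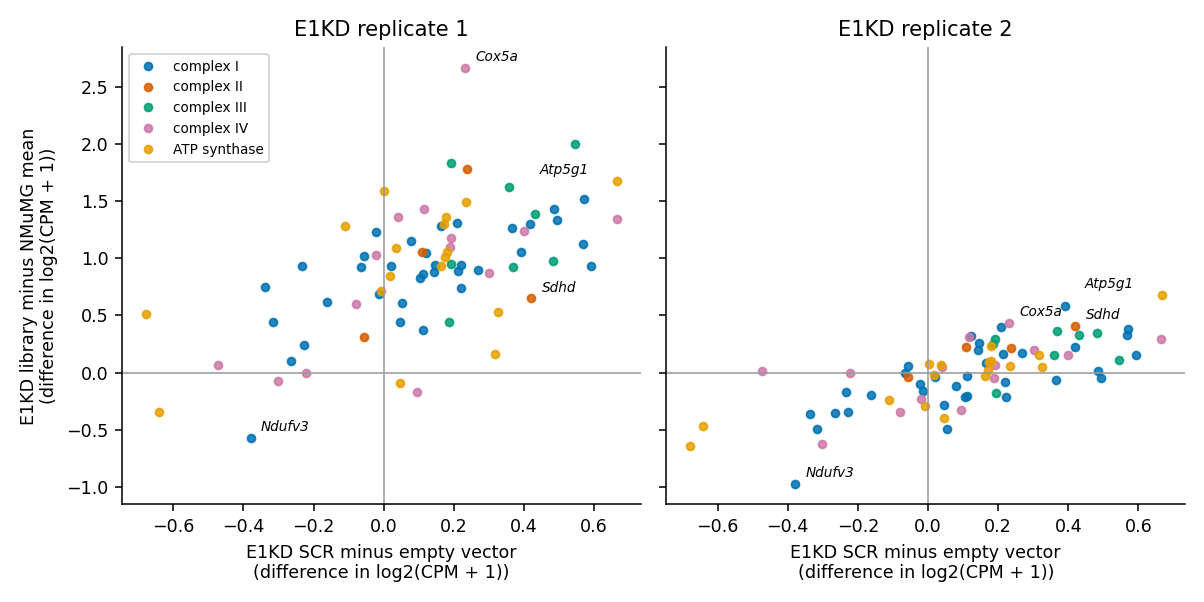
Difference of each E1KD library from the NMuMG mean against the difference of E1KD SCR from empty vector, both in log2(CPM + 1), for the 78 subunit genes colored by enzyme. The left panel shows E1KD replicate 1, with Cox5a highest, and the right panel replicate 2, whose points center near 0 and follow the horizontal axis with r = 0.73.

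Between M1P, the line recovered from the primary tumor, and E1KD, 57 subunit genes were called lower and 2 higher, against 37.0% and 12.1% of all tested genes called lower and higher, with a median of -0.61 (all genes, -0.17). E1KD replicate 1 again carried most of it. Without that library, 23 were called lower and 5 higher, against 23.1% and 21.2% of all tested genes, with a median of -0.14 (all genes, -0.01). The split over all genes also moved with the scaling, from 2067 higher and 6325 lower to 4193 and 4661 with median-of-ratios rescaling, while that of the subunit genes was 2 and 51. Without M1P replicate 1, 20 were called lower (25.6%, all genes 23.4%), and without M1P replicate 2, 27 were (34.6%, all genes 24.1%). With the same kind of library alone 7 were called lower and 1 higher, below the 19.3% and 8.56% of all genes. With the compared groups alone in the fit limma called 0, with 3 at an unadjusted p under 0.05, and 0.929% of all genes were called higher and 1.45% lower.

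Sdhb had 16.4 and 4.86 CPM in E1KD and 2.93 and 3.08 CPM in M1P. It fell by 1.33 on the log2 scale (SE 0.320, adjusted p = 0.00406 from limma), and by 0.55 (adjusted p = 0.00180 from limma) without replicate 1. Ndufb7, an accessory subunit of complex I, had 37.3 and 20.97 CPM in E1KD and 13.4 and 14.8 CPM in M1P (difference -0.95, without replicate 1 -0.55). The other large falls were those of Cox5a (-1.22, without replicate 1 -0.11), Uqcr11 (-1.02, -0.08), Atp5g1 (-0.95, -0.45), Cox7b (-0.93, -0.30), Ndufa4 (-0.93, -0.35) and Cox4i1 (-0.91, -0.25). Cox5a and Uqcr11 were not called without that library. Ndufv3 was higher, at 23.7 and 22.3 CPM in M1P (0.42, SE 0.109, adjusted p = 0.00644 from limma, and 0.62 without replicate 1). The other gene called higher was Cox6a2, at 0.0592 and 0.0186 CPM in E1KD and 0.122 and 0.124 CPM in M1P. These levels are under the 1 CPM of the filter, which Cox6a2 passed only through an overexpressing clone. In both lines recovered from mice the leukocyte marker sum was slightly above that of E1KD, at 5.78 to 6.93 against 1.87 to 2.84 CPM over 7 genes.

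L1P, the line from lung metastases, differed little from M1P in these genes. The median difference was 0.01 (all genes, 0.02), and 1 subunit gene was called higher and 2 lower, against 11.2% and 7.30% of all tested genes. When E1KD replicate 1 was left out of the fit, 10 were called higher and 11 lower, against 22.3% and 15.5%. With median-of-ratios rescaling 2 were called higher and 8 lower, against 15.8% and 13.9% of all genes. With equal sums these were 4 and 5, against 19.6% and 11.7%. Leaving out any 1 of the 4 libraries left 0 calls from limma, with 4 to 5 genes at an unadjusted p under 0.05. Cox8a was higher, moving from 151 and 152 CPM to 197 and 200 CPM (0.39, SE 0.127, adjusted p = 0.0465 from limma). Ndufa6 was lower, at 19.3 and 20.6 against 13.7 and 13.8 CPM (-0.51, SE 0.164, adjusted p = 0.0443 from limma). The third was Cox6a2, at 0.122 and 0.124 CPM before and listed at the added constant in L1P. These levels are under the 1 CPM of the filter, which Cox6a2 passed only through an overexpressing clone. The summed epithelial markers were at 2338 to 2389 CPM in M1P and 1333 to 1334 CPM in L1P.

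**Figure D5:**
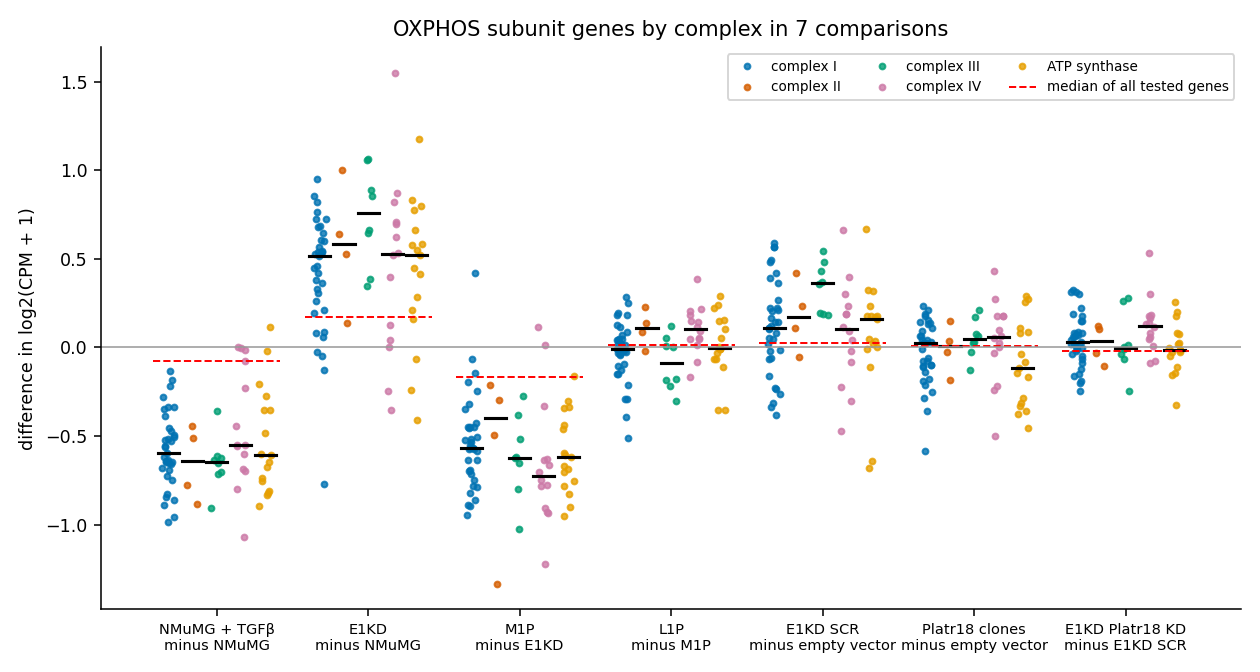
Difference in log2(CPM + 1) of each tested subunit gene in 7 comparisons, grouped by enzyme. Points are genes, black bars are enzyme medians and dashed lines are the median of all tested genes. All enzyme medians lie below the dashed line for TGFβ, those of the 2 comparisons that use both E1KD libraries lie above and below theirs, and those of the last 4 lie between -0.11 and 0.36.

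Platr18 overexpression was compared with the empty vector over the mean of the 2 clones. The median difference of the subunit genes was 0.03 (all genes, 0.01), and 1 was called higher and 6 lower, against 13.2% and 15.6% of all tested genes. Without E1KD replicate 1 in the fit, 12 were called higher and 18 lower, against 24.4% and 24.8%. The split was 4 higher (5.13%) and 10 lower (12.8%) with median-of-ratios rescaling, against 18.4% and 23% of all genes. Ndufv3 had 48.3 and 49.9 CPM with the empty vector, 26.3 and 27.3 CPM in clone 12 and 39.4 and 39.0 CPM in clone 16, so that all 4 libraries were below both controls (-0.58, SE 0.0940, adjusted p = 3.2e-04 from limma). Cox7a1 fell by 0.50 on the log2 scale and Atp5s by 0.45. Atp5k, the e subunit of the ATP synthase, had 34.2 and 37.1 CPM against 27.2 and 28.01 CPM in clone 12 and 27.2 and 26.5 CPM in clone 16 (-0.38, SE 0.0701, adjusted p = 0.00103 from limma). With the reads of its copies added this was no longer called (adjusted p = 0.0863 from limma). Atp5sl, which is named after the synthase but is not one of its subunits, fell by 0.33. The remaining 2 calls, Cox7a2l (-0.22) and Cox6a2 (0.28), came from 1 clone each, and their libraries in the other clone were near the controls. Cox6a2 had 1.11 and 1.07 CPM in clone 12 and less than 0.5 CPM in every other library, so that it passed the filter on low values only through the clone in which it was high, and its calls with clone 12 are not independent of that filter. The comparisons of Platr18 overexpression and of E1KD SCR share the empty vector libraries.

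Between the clones, 12 of the 78 subunit genes differed (15.4%), against 42.5% of all tested genes. Clone 16 was called higher than clone 12 in 7 and lower in 5, against 23.7% and 18.9% of all tested genes. With only the libraries of the same kind in the fit these were 25 (32.1%) and 23 (29.5%), against 31.4% and 27.3%. With the compared groups alone they were 22 (28.2%) and 20 (25.6%), against 27.4% and 23.3%. In a fit that left out E1KD replicate 1, the numbers were 23 and 21, against 32% and 28%, and leaving out any 1 of the 4 libraries gave 6 or 7 calls (7.69% to 8.97%, all genes 32.4% to 34.2%). Sdhc, the other membrane anchor of succinate dehydrogenase, had 50.05 and 53.5 CPM in clone 12 and 82.5 and 81.5 CPM in clone 16, with 72.3 and 76.3 CPM in the controls. The difference between clones was 0.65 (SE 0.0955, adjusted p = 7.6e-05 from limma). Ndufv3 (0.53), Atp5s (0.50), Cox5b (0.42), Cox8a (0.33), Cox7a1 (0.31) and Uqcrfs1 (0.21) were also higher in clone 16. Cox6c, a complex IV subunit, had 101 and 100.02 CPM in clone 12 and 60.3 and 57.3 CPM in clone 16 (-0.77, SE 0.225, adjusted p = 0.0133 from limma), with 76.0 and 77.3 CPM in the controls between them. Its locus overlaps Vps13b on the opposite strand. Ndufb9 (-0.67), Ndufa7 (-0.56), Cox6a2 (-0.51, tested only because of clone 12) and Cox7a2l (-0.35) were also lower in clone 16. Against the empty vector, Sdhc fell in clone 12 by 0.51, and Cox7a2l fell in clone 16 by 0.39.

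With all libraries in the fit, few subunit genes were called after silencing of Platr18 in E1KD cells. The median difference between E1KD Platr18 KD and E1KD SCR was 0.02 (all genes, -0.02), and 3 were called higher and 0 lower, against 8.45% and 11% of all tested genes. At an unadjusted p under 0.05, 4 were higher and 0 lower. With only the libraries of the same kind in the fit, 13 were called higher and 9 lower, against 15.1% and 21.5% of all genes. With the compared groups alone these were 16 (20.5%) and 10 (12.8%), against 14.8% and 21.6%. Without E1KD replicate 1 in the fit, 13 were called higher and 6 lower, against 16.4% and 22.9%. Cox7a2l had the largest rise, from 138 and 132 CPM to 197 and 196 CPM (0.53, SE 0.0595, adjusted p = 1.8e-05 from limma), the highest level of the gene in any library. Ndufv3 rose from 39.4 and 35.7 CPM to 47.1 and 47.5 CPM (0.33, SE 0.109, adjusted p = 0.0493 from limma), and Cox7a1, the muscle and heart isoform, from 1.29 and 1.19 CPM to 1.76 in both libraries (0.30, SE 0.0587, adjusted p = 0.00211 from limma).

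Among the other gene lists of the pathway, some genes differed more between these lines than any subunit gene did. The pyruvate dehydrogenase kinase Pdk1 was at 22.97 and 24 CPM in clone 12 against 96.9 and 97.7 CPM in clone 16, a difference of 2.01 (SE 0.0825). Pdk3 was at 0.0150 CPM and at the added constant in clone 12 against 8.40 and 8.38 CPM in clone 16 (3.22, SE 0.115). The complex I assembly factor Ndufaf4 was higher in the hnRNP E1-silenced cells of both kinds of library, by 1.75 (SE 0.0792) in E1KD and by 1.57 (SE 0.0792) in E1KD SCR. In E1KD its 2 libraries were at 42.6 and 37.5 CPM against 11.7 and 10.8 CPM in NMuMG, and the rise without replicate 1 was 1.65. Of the 13 mitochondrially encoded subunits, 7 were called lower and 2 higher in E1KD (median -0.24, without replicate 1 -0.42), against 17.1% and 39.6% of all tested genes. There were 4 lower and 0 higher with Platr18 overexpression (median -0.10), against 15.6% and 13.2% of all tested genes. With Platr18 silencing 3 were called higher and 0 lower (median 0.23), against 8.45% and 11% of all tested genes. More were called in these directions without E1KD replicate 1 in the fit, which left both medians unchanged.

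The isoforms restricted to muscle, heart or other tissues were at or near 0. Cox8b and Cox8c were listed at the added constant of 0.0001 CPM in all 20 libraries, and no library had more than 0.479 CPM of Cox7b2. Cox7a1 was at most 0.0393 CPM in the first kind of library and between 0.614 and 1.76 CPM in the second, and Cox6a2 was at most 1.11 CPM, in clone 12. Differences of these genes on the log2(CPM + 1) scale understate their ratios.

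The kinds of library differed in the levels of the subunit genes. The median difference between empty vector and NMuMG was 1.63 over the subunit genes (range -0.77 to 4.86, 71 of 78 positive) and 0.06 over all tested genes. With the reads of copies and second listings added to each gene, the median was 1.18. These conditions also differ in the vector, and what the rest of the difference comes from was not tested. Atp5a1, Ndufs3 and Uqcrc1 are listed 2 times each, with 46.4% to 51.4% of their reads on the second listing in the 10 conditions. For 21 of the 78 genes, 43 copies at another locus were found by sequence (at least 95% identity over at least 100 bases and 50% of the copy), and 41 of these were processed pseudogenes. In these 21 genes a median of 75.4% of the reads of gene and copies together were assigned to the copies in NMuMG and 32.1% with the empty vector, and the copies held over 50% in 19 and in 5 of the genes. Atp5o, the stalk subunit that confers oligomycin sensitivity, is an example. It had 2.41 CPM in both NMuMG libraries with a mean of 171 CPM on its copies, and 98.2 and 97.2 CPM with the empty vector with a mean of 46.1 CPM on the copies. With TGFβ it differed by -0.28 alone, which was called only without E1KD replicate 1, and by -0.90 with the copies added. Over all subunit genes, adding the copies and second listings left the TGFβ median at -0.62 with 56 called lower and 0 higher.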

How the data were processed

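Total RNA was extracted with Trizol and sequenced on an Illumina instrument. The deposited CPM values were made by the authors from reads aligned with Bowtie2 2.2.5 and assigned to GENCODE M18 genes of GRCm38.p6 by expectation maximisation in Partek, with 0.0001 added to every value. Strand use is not given in the sources used here. Genes that reached 1 CPM in 2 or more libraries were tested with limma 3.58.1 (R 4.3.3) on log2(CPM + 1). The fit had a trend and all 20 libraries with 10 condition means, and was checked on simulated data. In these data all libraries of a gene had the same spread and none stood apart like E1KD replicate 1, so the check does not cover that case. Fold changes on the log2(CPM + 1) scale understate those of low genes. A call is a Benjamini-Hochberg adjusted p under 0.05 over all tested genes. The study's own test in Partek was not run. SE is the standard error from that fit. Copies and second listings of a gene were found with BLAST 2.17.0.

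The members and gene lists were chosen with earlier results of these data known. Named genes were up to 8 called in each direction per comparison with the largest change and no overlap between groups, the most abundant gene of each enzyme, the tested tissue-restricted isoforms, the 5 smallest p of the effect and clone differences, and up to 3 genes per other list. Genes in counts of calls named outside this rule (Atp5k, Uqcrfs1, Cox7a2l and Cox6a2 in the comparisons with the empty vector, and Atp5l, Atp5o and Ndufaf4) were chosen after their values were seen. Alternatives were another pseudocount, filter, scaling, set of libraries and replicate block. Leaving out E1KD replicate 1 everywhere, adding the copies and second listings, and crossing the clone 16 numbers were chosen after seeing the data.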

Additional observations from a re-analysis of the deposited data

Results flagged for a closer look

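The hnRNP E1 silencing effect differed between the kinds of library, by an interaction term in limma, in 2 of the 78 subunit genes (2.56%), against 21.3% of all tested genes. The E1KD libraries lay far apart in the subunit genes, and the result depended on them. Leaving out 1 compared library moved the median difference over the subunit genes to between -0.11 and 0.81. The comparisons also differ in the vector and the scrambled shRNA. Cox6a2 differed by 0.51 and Cox7a2l by -0.34 on the log2(CPM + 1) scale, both as the effect in E1KD minus that in E1KD SCR. Cox6a2 was under 0.5 CPM in the libraries compared and passed the filter on low values only through clone 12, and Cox7a2l was not called with the reads of its copies added.

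The effect of Platr18 overexpression differed between the clones in 12 of the 78 subunit genes (15.4%), against 42.5% of all tested genes, tested as clone 16 minus clone 12. With only the libraries of the same kind in the fit these shares were 61.5% and 58.7%. With the compared groups alone they were 53.8% and 50.7%. Among the 5 with the smallest p with all libraries in the fit, Sdhc (0.65), Ndufv3 (0.53) and Cox7a1 (0.31) were higher in clone 16, and Cox6a2 (-0.51) and Cox7a2l (-0.35) were lower. The call of Cox6a2, at 1.11 and 1.07 CPM in clone 12 and less than 0.5 CPM in every other library, is not independent of that filter. Each clone is a single line, so that the clone and the level of Platr18 cannot be told apart.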

How the results depend on the processing

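The number of subunit genes called depended on which libraries set the spread. Percentages in brackets give the share of the subunit genes called and then that of all tested genes. With the same kind of library only it was 15 for TGFβ (19.2%, 45%), 13 for E1KD (16.7%, 42.4%) and 52 for E1KD SCR (66.7%, 58.8%). It was 8 for M1P (10.3%, 27.9%), 1 for L1P (1.28%, 9.76%) and 39 for Platr18 overexpression (50%, 47.6%). Between the clones it was 48 (61.5%, 58.7%) and for Platr18 silencing 22 (28.2%, 36.6%). With the compared groups only it was 0 for E1KD and M1P by limma (7 and 3 at an unadjusted p under 0.05), with 12.1% and 2.38% of all genes called. It was 45 for E1KD SCR (57.7%, 51.5%), 13 for L1P (16.7%, 36.6%) and 31 for overexpression (39.7%, 41.3%). Between the clones it was 42 (53.8%, 50.7%) and for Platr18 silencing 26 (33.3%, 36.4%). For the difference between the silencing effects it was 1 (1.28%, 7.24%). Without E1KD replicate 1 it was 70 for TGFβ, 39 for E1KD, 28 for M1P, 16 for the difference, 48 for E1KD SCR, 21 for L1P, 30 for overexpression, 44 between the clones and 19 for Platr18 silencing. The shares of all genes for that fit are given with each comparison above. With median-of-ratios rescaling it was 24 for E1KD SCR (30.8%, 53.3%), 10 for L1P (12.8%, 29.7%) and 14 for overexpression (17.9%, 41.4%). It was 24 between the clones (30.8%, 53.6%), 8 for Platr18 silencing (10.3%, 31.4%) and 8 for the difference (10.3%, 30.6%). With equal sums these were 25 (32.5%, 53%), 9 (11.7%, 31.3%), 13 (16.9%, 40.5%), 25 (32.5%, 52.4%), 5 (6.49%, 31.3%) and 5 (6.49%, 30.5%). Without a filter on low values it was 26 for TGFβ (31%, 18%), 22 for E1KD (26.2%, 17.5%) and 8 for E1KD SCR (9.52%, 14%). It was then 23 for M1P (27.4%, 13.1%) and 7 between the clones (8.33%, 13.5%). With a mean of at least 5 CPM it was 4 for overexpression (5.33%, 30.1%) and 1 for the difference (1.33%, 18.5%). With a pseudocount of 0.1 it was 1 for Platr18 silencing (1.28%, 18.7%). With the copies and second listings added it was 1 for the difference (1.28%, 21.4%). An unadjusted p under 0.001 with a difference of at least 1 left 1 each for TGFβ, E1KD and M1P, and 0 by limma in the other 6 comparisons. The cause was not tested in any of these. Leaving out 1 compared library gave 20 to 43 for TGFβ, 25 to 72 for E1KD, 5 to 9 for E1KD SCR, 20 to 75 for M1P, 0 for L1P by limma (4 to 5 at an unadjusted p under 0.05), 5 to 8 for overexpression, 6 to 7 between the clones, 2 for Platr18 silencing and 2 to 72 for the difference. Over the named genes and all alternatives computed, 794 differences kept their side of the threshold, 177 lost it and 7 gained it. No value of the sensitivity table changed sign past the threshold.

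Same-numbered libraries did not deviate together by the rule of a correlation over 0.1 in every pair (-0.125 to 0.287 over 9 pairs of conditions). With a replicate block the count was 48 for TGFβ and 1 for L1P, and crossing the clone 16 numbers gave 7 for overexpression.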
